A study of Drosophila melanogaster with 2 samples.

Results

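H3T3ph enriched regions of the euchromatic part of chromosome arm 3L were examined. They were chosen by position alone, as the regions of the deposited list that lie on 3L with a midpoint below 22.4 Mb. This gave 319 of the 6387 regions of the list, or 4.99%. The data came from S2 cells, a cultured *Drosophila melanogaster* embryonic cell line with no treatment or mutation named in its labels, and comprised 1 library of DNA immunoprecipitated with an antibody against H3T3ph (IP) and 1 library of input DNA. The IP library held 21013056 reads and the input library 23747069 reads. With 1 library of each kind there is no replicate check, so no p-value was computed, and all intervals are 95% intervals that cover counting error only. No molecular identifiers are named for the reads, so copies of 1 molecule made by PCR cannot be told from separate molecules.

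H3T3ph is histone H3 phosphorylated at threonine 3, a residue next to lysine 4, and haspin is the kinase that places it. The mark is best known from mitotic centromeres, where it recruits the chromosomal passenger complex. Euchromatin is the gene-rich part of the arms, and pericentromeric heterochromatin is the compact, repeat-rich chromatin next to the centromere, bound by HP1a. The study was about the roles of haspin, and this experiment in it asked where H3T3ph lies in the genome. On 3L the questions are whether the enriched regions gather in domains, what lies outside them, and how strong the enrichment is.

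The list gives for each region its position on the dm3 genome (counted from 1), its width, the IP and input reads, their RPKM (reads scaled to the length of the region and the size of the library) and a Benjamini-Hochberg p-value. Its columns carry no names. In all 6387 regions the first RPKM exceeded the second, and the first was taken as the IP. The width of the 319 regions ranged from 1 to 5561 bp. The median was 397 bp, and the quartiles were 101.5 and 844 bp. They covered 221.0 kb, or 0.987% of euchromatic 3L, and held 60182 IP reads and 49070 input reads. Their median was 102 IP reads and 66 input reads. The IP to input ratio, in which reads are scaled to the size of each library, was 1.39 over all of them (interval from 1.37 to 1.4). Reads can overlap 2 neighboring regions and be counted in both, and 45 of the 319 regions lie within 500 bp of another.

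The border at 22.4 Mb falls in a gap of 194.7 kb. The last regions inside it were at 22249462 to 22249773 (65 IP and 33 input reads), 22249781 to 22249782 (10 and 0) and 22249799 to 22249800 (11 and 0). The first regions beyond it were at 22444522 to 22445341 (215 and 163 reads) and 22454243 to 22455838 (404 and 324 reads). The first region from the telomere was at 911278 to 913268 and had 581 IP and 539 input reads.

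The regions were spread thinly over most of the arm and crowded in 1 place. In the 22 full bins of 1 Mb the median number was 12 regions. The bin from 13 to 14 Mb held 72 regions, the highest number, and the bin that starts at the telomere held 2, the lowest. Of the other bins, 13 had between 10 and 23 regions. The bin with the next highest number, 23 regions from 12 to 13 Mb, lies beside the highest one. From 0 to 4 Mb there were 15 regions in all, a density of 3.75 regions per Mb.

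**Figure D1:**
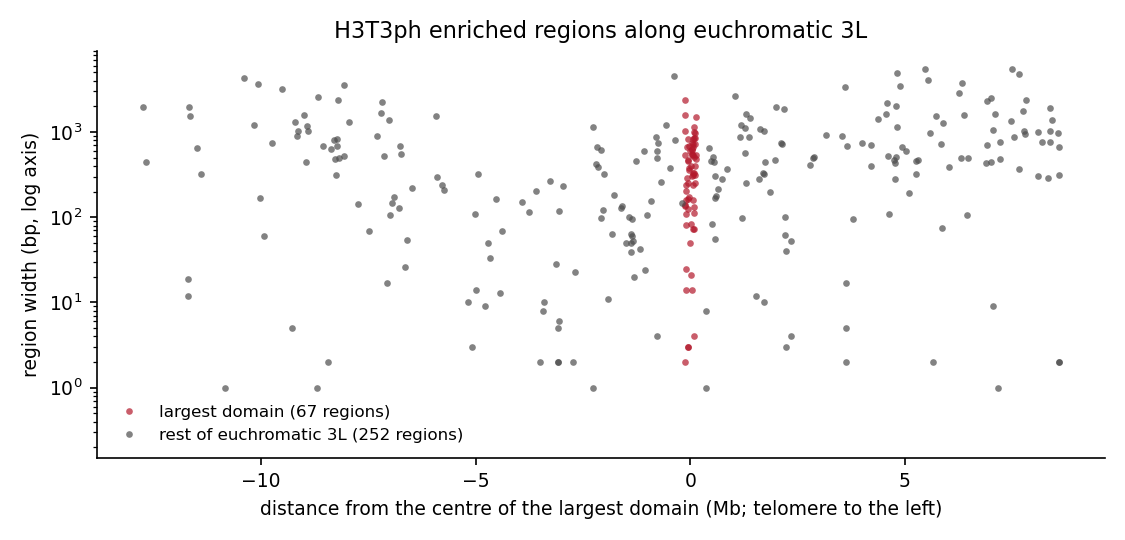
Each point is 1 of the 319 H3T3ph enriched regions of euchromatic 3L, plotted by its distance in Mb from the centre of the largest domain (telomere to the left) and its width in bp on a log axis. The 67 regions of the domain, in red, stand in a narrow column that reaches 2379 bp, while the 252 others, in grey, are spread along the arm and reach 5561 bp, with few wide regions some 2 to 5 Mb to the left of the domain.

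Runs of 10 or more regions with gaps of up to 25 kb between neighbors were counted as domains. Euchromatic 3L had 1 such domain, from 13528992 to 13797562, with 67 regions over 268.6 kb. It made up 1.2% of the length of euchromatic 3L and held 21.0% of its regions, 13.6% of the covered sequence and 11.6% of the IP reads. Its density was 24.9 regions per 100 kb, against 1.14 regions per 100 kb in the rest of euchromatic 3L. It was picked for its number of regions, so this contrast is a description. The density of the domain was close to that of the 3L pericentromere (23.6 regions per 100 kb beyond 22.4 Mb), but its regions covered 11.2% of its length and those of the pericentromere 26.1%.

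By its definition the domain ends where a gap exceeds 25 kb, so the empty stretches at its borders are a description. Outside the domain the median gap was 48.4 kb, with an upper quartile of 106.1 kb. To the left, the nearest region was at 13457110 to 13457256, 71.7 kb from the border, with 43 IP and 13 input reads. To the right, the next 220.0 kb held no region, and the first ones were a 1-bp region at 14017601 with 10 IP reads and no input read, and an 8-bp region at 14023424 to 14023431 with 11 IP reads and 1 input read. Within 100 kb of either border there was 1 region in all, and within 250 kb there were 5.

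Inside the domain the regions formed 5 groups when neighbors were allowed to be no more than 10 kb apart. The group with the most regions ran from 13679549 to 13776103, with 34 regions over 96.6 kb, 16% of that length covered and an IP to input ratio of 1.78 (interval from 1.69 to 1.88). The 2 groups before the middle of the domain had 14 regions each. The ratio was 1.57 in the one from 13528992 to 13566693 (interval from 1.46 to 1.69), and 1.85 in the one from 13589389 to 13637338 (interval from 1.68 to 2.03). The others had 2 regions (13656256 to 13664717) and 3 regions (13788337 to 13797562). The longest gap in the domain, 22.7 kb, ran from 13566693 to 13589389, and the next, 18.9 kb, from 13637338 to 13656256.

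Of 5 equal parts of the domain, the middle one was the thinnest. Among 10 windows, however, the one next to the leftmost was as thin as the one just right of the centre, each 2.06% covered. When the domain was divided into 5 parts of 53.7 kb, the parts from left to right held 14, 13, 6, 20 and 14 regions, and these covered 12.3, 8.38, 2.80, 15.2 and 17.3% of the sequence. The ratio was 1.57 in the left part (interval from 1.46 to 1.69), 2.02 in the middle part (interval from 1.70 to 2.41) and 1.60 in the right part (interval from 1.49 to 1.71). The 3 middle parts together had a ratio of 1.87 (39 regions, interval from 1.77 to 1.98) and the 2 outer parts 1.58 (28 regions, interval from 1.51 to 1.67). The wide regions lay in the outer parts, however, and at equal width the middle was 1.01 times the outer parts, with an interval from 0.918 to 1.12. A difference in enrichment between the middle and the ends was therefore not detectable at this depth.

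**Figure D2:**
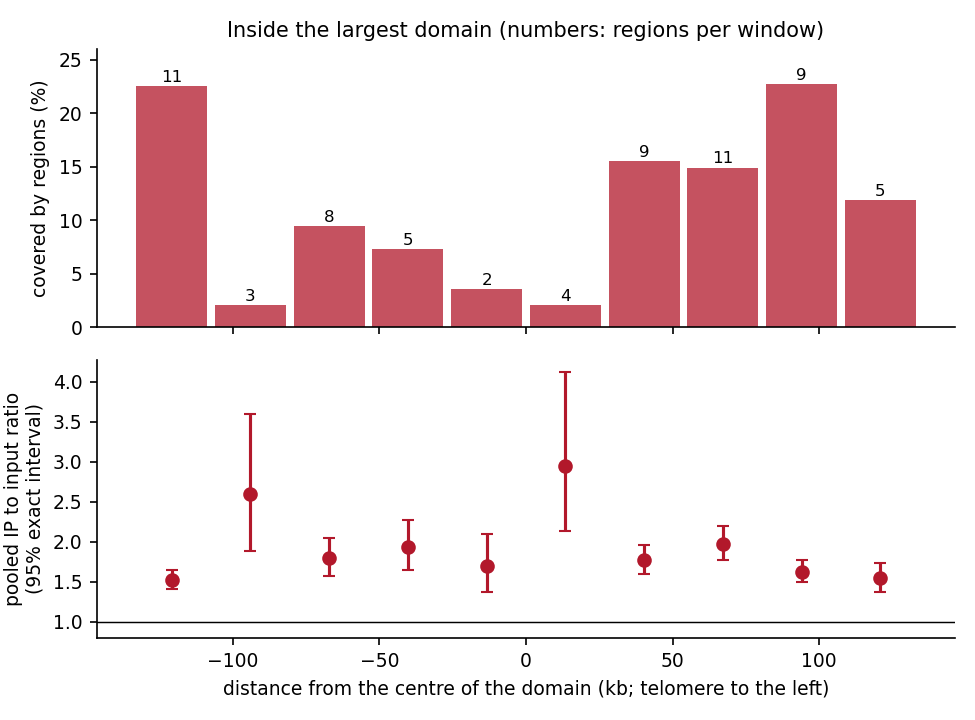
The domain is divided into 10 windows of 26.9 kb, placed by their distance in kb from its centre (telomere to the left). Bars give the percent of each window covered by regions, with the number of regions above, and points give the pooled IP to input ratio with its 95% exact interval. Coverage is 22.6% in the leftmost window, with 11 regions. It is 2.06% in the window just right of the centre, with 4 regions, and in the one next to the leftmost, with 3 regions. The 2 highest ratios, 2.94 and 2.59, stand in these windows, with 552 and 553 bp covered.

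The regions of the domain were of middling width. Of the 67 regions, 47 were between 51 and 800 bp wide, which is 70.1% (95% Wilson interval from 58.3 to 79.8%), against 128 of 252 regions, or 50.8% (interval from 44.7 to 56.9%), in the rest of euchromatic 3L. Only 1 region of the domain was wider than 1600 bp, or 1.49% (interval from 0.264 to 7.98%), against 33 of 252, or 13.1% (interval from 9.48 to 17.8%), outside it. In the 3L pericentromere 108 of 504 regions, or 21.4%, were this wide. Among the narrowest, up to 50 bp, were 9 of the 67 and 49 of the 252. These intervals treat regions as independent, which neighbors are not.

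The widest region of the domain stood near its left end, in a row of 3. The regions at 13528992 to 13530570 (468 IP and 390 input reads), 13530805 to 13531820 (279 and 201) and 13532140 to 13534518 (499 and 436) are separated by gaps of 234 and 319 bp. The last of these, 2379 bp wide, was the widest of the domain and had its lowest ratio, 1.29 (interval from 1.14 to 1.47). Among the regions of at least 400 bp, the highest ratio in the domain was 2.19 (interval from 1.62 to 3.0), at 13716680 to 13717211, with 128 IP and 66 input reads. It was followed by 2.10 at 13540822 to 13541355 (119 and 64 reads) and 2.07 at 13603157 to 13603612 (99 and 54 reads), with intervals that overlap. A narrower region at 13613520 to 13613772, 253 bp wide with 60 IP and 20 input reads, had a ratio of 3.39 (interval from 2.01 to 5.94).

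Outside the domain the 252 regions had a median width of 438 bp and a ratio of 1.35 (interval from 1.34 to 1.37). Single regions, with 25 kb free on either side, numbered 118, or 37.0% of all 319. Another 58 stood in 29 pairs, and 76 in 19 runs of 3 to 7 regions. Single regions and runs had nearly the same pooled ratio, 1.35 over 134 regions in runs of 2 to 7 and 1.35 over the 118 single ones. At equal width the regions in runs were 1.03 times the single ones (interval from 1.001 to 1.05).

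The 6 runs of 5 to 7 regions differed in kind. The run with the most regions, from 18415590 to 18481793, had 7 regions over 66.2 kb that covered 14.9% of it, with 3313 IP and 2972 input reads and a ratio of 1.26 (interval from 1.2 to 1.32). Of the runs with 5 regions, the one from 17274047 to 17302520 covered 14.3% of its 28.5 kb, most of it by a region 3354 bp wide. The last one before the border, from 22222964 to 22249800, had a coverage of 7.28% and an IP to input ratio of 1.62 (interval from 1.41 to 1.87). The run from 14220136 to 14260518 had 281 IP and 158 input reads and a ratio of 2.01 (interval from 1.65 to 2.46).

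The other 2 runs of 5 consisted of narrow regions. From 10582361 to 10602920 the regions were between 2 and 118 bp wide and covered 133 bp in all, with 76 IP and 14 input reads, and 3 of the 5 had no input read. From 12280365 to 12305717 they were between 39 and 95 bp wide and covered 308 bp, with 99 IP and 24 input reads. The ratio was 6.13 in the first of these runs (interval from 3.44 to 11.8). In the other it was 4.66 (interval from 2.96 to 7.62), and for regions this narrow the list requires a high ratio.

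Both the width and the number of regions changed along the arm. Outside the domain, in steps of 4 Mb (2.4 Mb for the last), the density was between 3.75 and 18.8 regions per Mb and the median width between 64 and 815.5 bp. Without the step from 8 to 12 Mb, the median width was between 281 and 815.5 bp. From 8 to 12 Mb there were 39 regions with a median width of 64 bp, and they covered 6008 bp, or 0.15% of the sequence. Of these, 19 were at most 50 bp wide and 1 was wider than 800 bp. From 4 to 8 Mb 45 regions covered 37358 bp with a median width of 550 bp, and from 16 to 20 Mb 47 regions covered 52863 bp with a median of 530 bp. The thinnest stretch was from 8 to 11 Mb, where 27 regions covered 1977 bp with a median width of 23 bp. The choice of these stretches followed from their values.

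Wide regions were more numerous toward the centromere. The 34 regions wider than 1600 bp made up 45.0% of the covered sequence, and 18 of them lay beyond 16 Mb, 10 before 8 Mb and 0 between 8 and 12 Mb. The 12 regions wider than 3200 bp had ratios between 1.13 and 1.23, and none of them lay in the domain. The widest, 5561 bp at 21150776 to 21156336, had 1502 IP and 1463 input reads, a ratio of 1.16 (interval from 1.08 to 1.25). The next, 5510 bp at 19117971 to 19123480, had 1859 and 1855 reads and the lowest ratio of euchromatic 3L, 1.13 (interval from 1.06 to 1.21). Another wide region, 4579 bp at 13289336 to 13293914, with 1135 IP and 1050 input reads, lies 235.1 kb to the left of the domain. Outside the domain the highest ratio among regions of at least 400 bp was 1.84 (interval from 1.45 to 2.33), at 4714732 to 4715177, with 190 IP and 117 input reads.

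The domain was defined by gaps of up to 25 kb, so that short gaps inside it follow from the definition and are given as a description. Inside the domain the median of 66 gaps was 2.69 kb (quartiles of 0.794 and 4.68 kb), and the longest was 22.7 kb. In the rest of euchromatic 3L the median of 252 gaps was 48.4 kb (quartiles of 13.8 and 106.1 kb), and 67 of them, or 26.6%, were longer than 100 kb. The longest, 970.9 kb, ran from 980492 to 1951401, and the next, 569.2 kb, from 7920495 to 8489694. In the 3L pericentromere the median gap was 0.704 kb. Gaps of at most 500 bp numbered 14 in the domain and 11 elsewhere, and in 11 of these 25 cases at least 1 neighbor was at most 50 bp wide. Examples are the regions at 13550130 to 13550210, 13550212 to 13550225 and 13550227 to 13550251, which lie 1 bp apart with 23, 12 and 12 IP reads and 6, 1 and 1 input reads. When regions within 500 bp were joined, the domain held 53. Among the regions with a deposited p-value up to the median of the list, the largest run lay inside the same span, from 13679549 to 13768418, and held 12 regions.

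**Figure D3:**
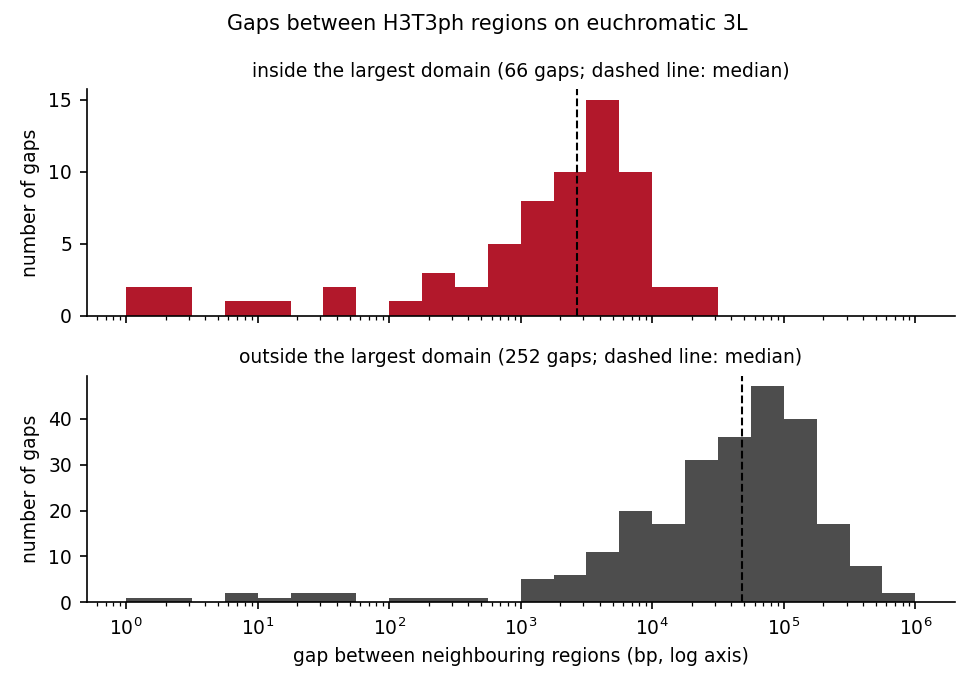
Histograms of the gap in bp between neighboring H3T3ph regions of euchromatic 3L, on a log axis, inside the largest domain (upper panel, 66 gaps) and outside it (lower panel, 252 gaps), with the number of gaps on the vertical axis and the median as a dashed line. The medians are 2690 and 48438 bp, and gaps of at most 500 bp number 14 of 66 in the upper panel and 11 of 252 in the lower one. No gap inside the domain can exceed 25 kb by its definition.

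The ratio of a listed region was tied to its width and to its number of reads. Among the 38 regions with more than 400 IP reads the ratio was between 1.13 and 1.42. It was between 1.28 and 2.19 among the 124 regions with over 100 to 400 IP reads, and between 1.68 and 8.66 among the 94 with over 20 to 100. Of the 63 regions with up to 20 IP reads, 28 had no input read and the others had ratios of 5.09 or more. The 28 regions without input reads were all at most 50 bp wide, and 20 of them had 10 IP reads, the minimum of the list. The highest ratio with input reads was 15.8, for a region of 33 bp at 9000659 to 9000691 with 14 IP reads and 1 input read. In the domain it was 13.6, with 12 IP reads and 1 input read. A region with few reads passes the threshold of the list only with a high ratio, so ratios are compared here between regions of like width. Regions of like width can still differ in their number of reads, so the effect of the threshold is not removed.

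**Figure D4:**
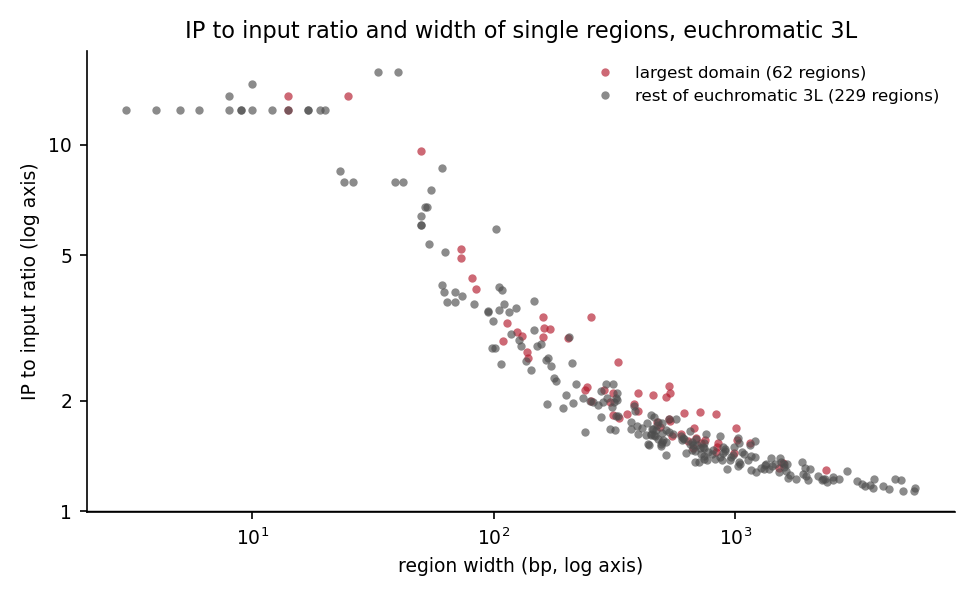
IP to input ratio of single regions (vertical log axis) against their width in bp (horizontal log axis), for the 62 regions of the largest domain (red) and the 229 regions of the rest of euchromatic 3L (grey) that have at least 1 input read. Ratios fall with width to 1.13 at the widest regions, and the regions of the domain lie in the upper part of the band between about 400 and 800 bp.

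At equal width, the regions of the domain had a slightly higher ratio than those of the rest of euchromatic 3L. In regions of 401 to 800 bp the ratio was 1.73 in the domain (18 regions, 2350 IP and 1539 input reads, interval from 1.62 to 1.84) and 1.54 in the rest (55 regions, 8828 and 6477 reads, interval from 1.49 to 1.59). In regions of 201 to 400 bp it was 2.09 in the domain (interval from 1.89 to 2.32) and 1.9 in the rest (interval from 1.78 to 2.03). In those of 801 to 1600 bp it was 1.48 in the domain (interval from 1.4 to 1.57) and 1.38 in the rest (interval from 1.35 to 1.42), with overlapping intervals in both classes. Over all 6 classes of width, from at most 50 bp to over 1600 bp, the domain had 1.09 times the ratio of the rest (Mantel-Haenszel estimate, interval from 1.05 to 1.14). Without regard to width the 2 ratios were 1.71 and 1.35. With classes of reads in place of width, which were added once the data were known, the estimate was 1.05 (interval from 1.01 to 1.10).

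Both libraries were shallower in the listed regions of the domain than in those of the rest. Depth between listed regions was not measured. In regions of 401 to 800 bp the IP had 10.5 RPKM in the domain and 13.3 RPKM in the rest, and the input had 6.07 RPKM in the domain and 8.63 RPKM in the rest. The RPKM of the domain was the lower one in all 6 classes of width, in the IP as in the input. The higher ratio thus went with a lower input depth and not with a higher IP depth. With fewer reads at equal width, a region needs a higher ratio to be listed. The part of the input depth and of this threshold in the ratio was not tested. Of the 29 regions of the domain wider than 400 bp, 4 had a ratio of 2 or more, against 0 of 130 in the rest, where a count of 0 allows up to 2.31% (3 counts of the total) or 2.87% (upper end of the 95% Wilson interval). This count is not at equal width. Of the 29 regions, 18 were 401 to 800 bp wide and 1 was over 1600 bp wide, against 55 and 33 of the 130.

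**Figure D5:**
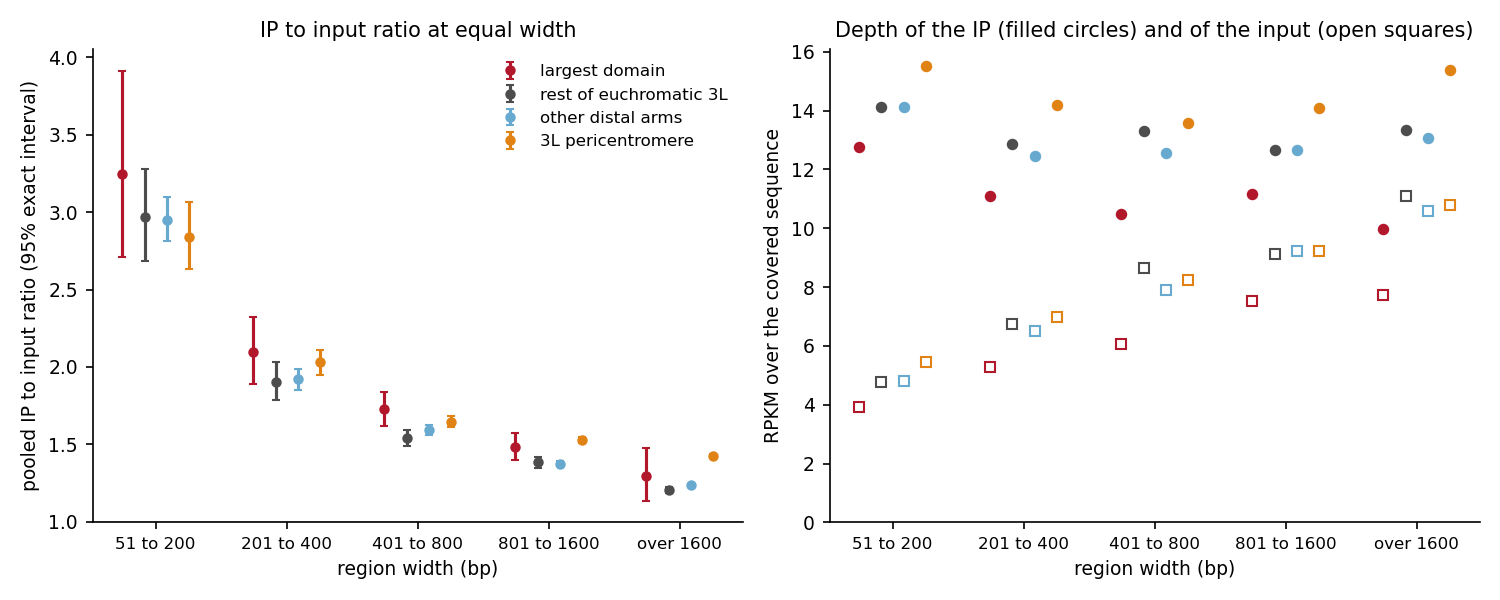
Left, pooled IP to input ratio with its 95% exact interval in 5 classes of region width in bp, for the largest domain, the rest of euchromatic 3L, the other distal arms and the 3L pericentromere. Right, the RPKM of the IP (filled circles) and of the input (open squares) over the same regions. The domain has the lowest RPKM of the 4 groups in both libraries, with 10.5 and 6.07 RPKM in regions of 401 to 800 bp, and in regions over 1600 bp the ratio is 1.2 in the rest of euchromatic 3L and 1.43 in the pericentromere.

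The pericentromere of the same arm gives a measure of these ratios. It starts at 22.4 Mb and holds 504 regions, with a ratio of 1.51 (interval from 1.49 to 1.52). At equal width the ratio of euchromatic 3L was 0.887 times that of the pericentromere (interval from 0.875 to 0.900). The difference was clearest in wide regions. In those over 1600 bp the ratio was 1.21 on euchromatic 3L (34 regions, interval from 1.18 to 1.23) and 1.43 in the pericentromere (108 regions, interval from 1.41 to 1.44). In regions of 51 to 200 bp it was 3.03 on euchromatic 3L (interval from 2.78 to 3.31) and 2.84 in the pericentromere (interval from 2.63 to 3.06), which could not be told apart. The domain alone had 1.0 times the ratio of the pericentromere at equal width (interval from 0.966 to 1.04), and 0.957 times with equal reads (interval from 0.920 to 0.996). The rest of euchromatic 3L had 0.877 times the ratio (interval from 0.864 to 0.890).

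The deposited p-values were weaker on euchromatic 3L than in the list as a whole, as they were on the other distal arms. Of the 319 regions, 66 had a p-value at or below the median of the list, or 20.7% (95% Wilson interval from 16.6 to 25.5%), while 50.5% of the whole list did. In the domain it was 21 of 67 regions, or 31.3% (interval from 21.5 to 43.2%), and in the rest of euchromatic 3L 45 of 252, or 17.9% (interval from 13.6 to 23.1%). The other distal arms had 189 of 1085 regions, or 17.4% (interval from 15.3 to 19.8%), and the pericentromere 293 of 504 regions, or 58.1%. A p-value listed as 0 was found for 0 of the 319 regions, which allows a share of up to 0.940% (3 counts of the total) or 1.19% (upper end of the Wilson interval). It was found for 4 of 1085 regions of the other distal arms and for 7.62% of the whole list. The lowest p-value in the domain was 2.02e-05, that of the region at 13716680 to 13717211, and the lowest outside it was 2.91e-05, that of the region at 4714732 to 4715177. In the domain it was followed by the region at 13747449 to 13748457, with 242 IP and 162 input reads and a ratio of 1.69 (interval from 1.38 to 2.07).

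Compared with the other arms, euchromatic 3L had a middling number of regions. Its density was 14.2 regions per Mb. Over 2L, 2R, 3R and X without the 2 Mb next to the centromere, here called the other distal arms, it was 12.6 regions per Mb. The ratio of the densities was 1.13 (exact interval from 0.995 to 1.28). It was 1.25 (interval from 1.09 to 1.42) when 4 Mb next to each centromere were left out of the other arms, and 1.28 (interval from 1.07 to 1.53) with regions of at least 376 bp, the median width of the list. Without the domain the density was 11.4 regions per Mb, 0.904 times that of the other distal arms (interval from 0.785 to 1.04). By arm, euchromatic 3L had 0.917 times the density of distal 2L (interval from 0.783 to 1.07), 1.14 times that of distal 3R (interval from 0.970 to 1.33) and 1.05 times that of distal X (interval from 0.891 to 1.24). Relative to distal 2R the density was 1.7 times as high (interval from 1.4 to 2.07). Without the domain it was 0.733 times that of distal 2L (interval from 0.619 to 0.867) and 1.36 times that of distal 2R (interval from 1.11 to 1.67).

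Over the other distal arms together, the IP to input ratio was close to that of euchromatic 3L, but the arms were not alike. At equal width the ratio of euchromatic 3L was 0.991 times that of the other distal arms (interval from 0.978 to 1.005), and without the domain it was 0.982 times (interval from 0.968 to 0.996). By arm, the rest of euchromatic 3L had 0.890 times the ratio of distal X (interval from 0.864 to 0.916). The median region of distal X had 17 IP and 2 input reads, against 111.5 and 75 in the rest of euchromatic 3L. Distal X was not compared at equal reads, so the part of the threshold in this difference was not tested. The rest of euchromatic 3L had 0.979 times the ratio of distal 3R (interval from 0.963 to 0.995) and 0.984 times that of distal 2R (interval from 0.963 to 1.01). Its ratio and that of distal 2L differed by less than the counting error (interval from 0.984 to 1.02). At equal width the domain alone had 1.08 times the ratio of the other distal arms together (interval from 1.04 to 1.12). Relative to the 161 regions in domains of the other distal arms, the domain had 1.06 times the ratio (interval from 1.01 to 1.11). Regions of at most 50 bp were 58 of 319 on euchromatic 3L, or 18.2% (interval from 14.3 to 22.8%), and 297 of 1085 on the other distal arms, or 27.4% (interval from 24.8 to 30.1%). Distal X held 140 of those 297, and regions of at most 50 bp were 50.5% of the regions of distal X. Distal 2L had 22.1% and distal 3R 16.5%.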

How the data were processed

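Per the paper and the submitters' processing notes, the authors aligned single reads of 50 nt from 1 IP and 1 input library of S2 cells to dm3 with Bowtie 0.12.5, keeping reads with 1 placement and up to 2 mismatches. Libraries were made with 18 PCR cycles, starting from 8.5 ng of DNA each. With htSeqTools they filtered reads piled up by amplification, aligned both strands' peaks and called enriched regions (a minimum of 10 reads, Benjamini-Hochberg p-value below 0.05). The deposited list gives raw read counts per region. The deposited RPKM values are scaled to width and library size, and library totals were taken from counts and RPKM. The deposited p-values served to rank regions, to cut the list at its median and to count shares of regions.

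The tools were statsmodels 0.14.6, scipy 1.17.1, pandas 2.3.3, numpy 2.4.6 and matplotlib 3.10.9 under Python 3.11.15. Intervals on ratios and densities are exact (Clopper-Pearson), those on shares are Wilson intervals, and ratios at equal width are Mantel-Haenszel estimates over 6 classes of width (borders at 50, 200, 400, 800 and 1600 bp). Arms were taken to end with their last listed region. Intervals on densities and shares treat regions as independent, which neighbors are not. The regions, definitions and comparisons were chosen with earlier results of these data known. The rule for naming regions took all domains and the 5 runs with the most regions among runs of 5 to 9. Since 5 runs tied at 5 regions, all 6 runs were named. It also took the extremes of width, ratio and p-value inside and outside the domain. The longest gap, the bins with most and fewest regions and the regions at the border were included too. Other regions and gaps were named after their values had been seen. The code was tested on simulated regions. Genes and sequences are not given, since the gene table used here is of Release 6, a build other than dm3.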

Additional observations from a re-analysis of the deposited data

How the results depend on the processing

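No paired analysis was possible because each group has 1 library, and for the same reason no replicate could be left out. Of 37 alternatives, 27 changed no call. For counts, densities and gaps this means a value within 1.5 times the main one, and for ratios an interval that still held 1 or still left it out on the same side. Among these, the density relative to the other distal arms without the domain lay below 1 at 0.904 (interval from 0.785 to 1.04). In 3 others an interval that had held 1 no longer did, and 7 moved a count, density or gap by more than 1.5 times. When regions with p-values above the list's median were dropped, the density of euchromatic 3L was 2.95 regions per Mb, the largest run held 12 regions and the median gap outside the domain was 213 kb. When regions narrower than 376 bp, the median width, were dropped, the density was 7.41 regions per Mb. A largest gap of 10 kb gave 3 domains, the largest with 34 regions, and a minimum of 5 regions gave 7 domains. The density relative to the other distal arms was 1.28 (interval from 1.07 to 1.53) with wide regions only, which leaves out most regions of distal X. It was 1.25 (interval from 1.09 to 1.42) with 4 Mb of the other arms left out and the border of 3L kept, so unlike parts were compared. These intervals lie above 1, but they treat regions as independent, which neighbors are not. Without the domain, the ratio of euchromatic 3L at equal width was 0.982 times that of the other distal arms (interval from 0.968 to 0.996). The ratio of the domain over the rest of euchromatic 3L at equal width was between 1.05 and 1.11 over its 5 alternatives, and that of euchromatic 3L over the pericentromere between 0.877 and 0.890 over its 6. The depth limits the narrow regions most, since a region with 10 IP reads and no input read has a ratio of at least 2.53 at the lower end of its interval.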
